A study of Mus musculus with 18 samples.

Results

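The 10 genes described here encode the chains of the IL-4 and IL-13 receptors (*Il4ra*, *Il13ra1* and *Il2rg*), the Janus kinases that these chains carry (*Jak1*, *Jak3* and *Tyk2*), the transcription factor *Stat6*, and 3 feedback inhibitors of cytokine signaling (*Socs1*, *Cish* and *Socs3*). They were chosen by name, as the rows of the count table whose Ensembl identifiers belong to these symbols in GRCm38. All 10 were found among the 55385 genes listed, and all 10 were among the 14979 genes that passed the count filter and were tested. The RNA came from bone marrow-derived macrophages (BMDM) of 12-week-old female C57BL/6J mice, grown with L-929 cell supernatant and harvested on day 7, and 3 individual mice were used. Cells received vehicle (Veh, 0.1% DMSO), 250 µM hemicholinium-3 (HC3), which blocks choline uptake, or 5 µM RSM-932a (RSM), an inhibitor of choline kinase. After 24 h with these agents they were kept naïve (M[0]) or given IL-4 at 20 ng/mL for a further 24 h (M[IL-4]), which makes 6 groups of 3 libraries, and the labels name no genetic change in any group. The agents thus came before IL-4, and "with HC3" or "with RSM" below means cells given that agent first. All values are from macrophages grown in culture, and those of M[IL-4] were taken at the end of the 24 h with IL-4.

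IL-4 acts through pairs of receptor chains. IL-4Rα, the product of *Il4ra*, binds IL-4 and pairs with the common γ chain (*Il2rg*) in the type I receptor, or with IL-13Rα1 (*Il13ra1*) in the type II receptor, which also binds IL-13. JAK1 sits on IL-4Rα, JAK3 on the γ chain and TYK2 on IL-13Rα1. The activated kinases phosphorylate IL-4Rα and then STAT6, which moves to the nucleus and turns on the genes of alternatively activated macrophages. SOCS1 and SOCS3 carry SH2 and SOCS box domains and restrain JAK activity, and CIS, the product of *Cish*, is a related protein best known as a STAT5-induced inhibitor. mRNA counts measure none of the phosphorylation steps.

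Libraries held 17457796 to 19522255 counts. CPM is the read count of a gene scaled to the library total after trimmed mean (TMM) scaling, unless stated otherwise. Without TMM scaling, 3 counts in a library correspond to 0.154 to 0.172 CPM. The summed marker levels below are also without TMM scaling. A gene "passed" a comparison when its Benjamini-Hochberg FDR from edgeR was under 0.05, and it was "called" when its log2 fold change was also at least 1 or at most -1. Errors of CPM are SD over 3 libraries, and errors of log2 fold changes are SE. Macrophage markers were abundant in every library, with all 8 listed markers tested and summed levels without IL-4 of 20374 to 21467 CPM (Veh), 9070.3 to 9923 CPM (HC3) and 16307 to 17651 CPM (RSM). In M[IL-4] the sums were 11254 to 11599, 7487 to 8401 and 10660.5 to 12683 CPM with Veh, HC3 and RSM. The T cell markers *Cd3d* and *Cd3g* were at 0 counts in all 18 libraries, as were *S100a9* and *Elane* of the neutrophil lineage and *Fcer1a* of mast cells and basophils. Other markers of these lists held reads, up to 105 in a library for *Cd4*, 37 for *S100a8* and 27 for *Gata2*. Summed levels reached 6.12 CPM for T and NK cell, 1.00 for B cell, 2.04 for neutrophil, 3.29 for basophil and mast cell and 2.58 for dendritic cell markers. The T and NK cell sum was 3.57 to 6.12 CPM in Veh M[0] and 0.646 to 0.758 CPM in Veh M[IL-4]. Of 6 stromal markers, 5 were tested, and their sum was 494 to 859, 1214 to 1712 and 1024 to 1484 CPM in naïve cells with Veh, HC3 and RSM, against 258 to 636, 534 to 1041 and 515 to 1051 CPM in the M[IL-4] groups in the same order. Mitochondrial transcripts took 1.68 to 2.20% of counts with Veh, 2.50 to 3.45% with HC3 and 0.665 to 0.829% with RSM. The part of these shifts in the results below was not tested, except that leaving the mitochondrial genes out changed no member's side of the FDR threshold. In bulk RNA, fewer cells of a type and less RNA per cell cannot be told apart.

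Levels of different genes are compared per length, as CPM per kb of merged exon, and their order moves with the exon models chosen. On that scale *Stat6* was the most abundant of the 10 in Veh M[0], at 76.05 ± 1.13 CPM per kb, followed by *Jak1* at 47.9 ± 2.91 and *Il4ra* at 19.4 ± 1.84 (n = 3). *Il2rg* had 14.1 ± 3.85 CPM per kb and *Tyk2* 13.2 ± 1.70, and these neighbors in the order, like *Il4ra* and *Il2rg*, had overlapping libraries. *Jak3* lay at 6.18 ± 0.300 CPM per kb and *Il13ra1* at 3.04 ± 0.181. The feedback inhibitors were the lowest, with *Socs3* at 2.77 ± 0.553 CPM per kb, overlapping *Il13ra1*, then *Socs1* at 0.514 ± 0.185 and *Cish* at 0.0499 ± 0.0207. With IL-4 and vehicle, *Stat6* and *Jak1* kept the top places, *Il2rg* (20.5 ± 4.53 CPM per kb) stood above *Il4ra* (10.8 ± 0.610) without overlap, *Socs1* reached 7.95 ± 1.08, and *Il13ra1* became the lowest at 1.42 ± 0.136, overlapping *Cish* at 1.58 ± 0.0826. The merged exons of *Cish* hold 6419 bp, within a gene at chr9:107296026-107302784, and those of *Il13ra1* hold 3712 bp. Without length scaling, Veh M[IL-4] held 10.1 ± 0.530 CPM of *Cish* and 5.26 ± 0.506 of *Il13ra1*. Their overlap per kb therefore depends on these lengths. The plot of CPM by library shows each gene on its own axis.

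**Figure D1:**
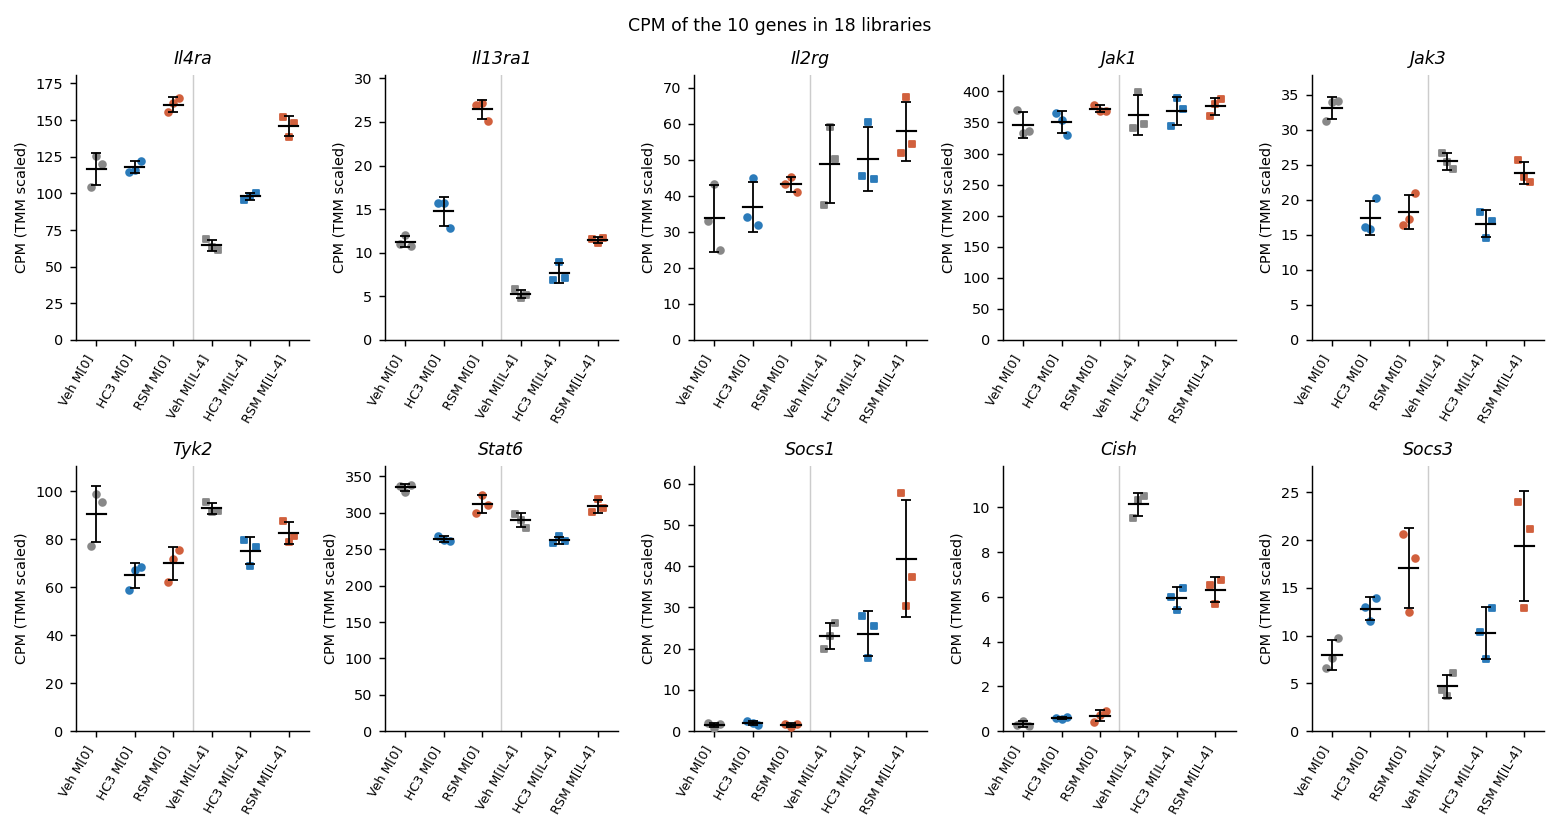
CPM (vertical axis, TMM scaled, starting at 0) of the 10 genes in the 6 groups, with a point per library, a bar at the mean and an error bar of 1 SD (n = 3). *Jak1* was flat across groups, *Il4ra* and *Il13ra1* were lowest in Veh M[IL-4], *Socs1* and *Cish* were near 0 in M[0] and high in M[IL-4], and *Socs3* was highest with RSM.

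*Il4ra*, which encodes the ligand-binding chain (ENSMUSG00000030748, chr7:125552120-125579474, plus strand, GRCm38), fell with IL-4 in vehicle-treated cells and stood above vehicle in M[IL-4] cells that had been given an inhibitor before IL-4. Without IL-4, the 3 Veh libraries held 104, 126 and 119.9 CPM, those with HC3 115, 116 and 122 and those with RSM 155, 161 and 165. After IL-4 they held 68.6, 63.6 and 61.4 CPM with Veh, 95.4, 98.1 and 100.3 with HC3 and 152, 138 and 148 with RSM. The vehicle libraries with IL-4 were the lowest of the 6 groups and overlapped none of the others, and both RSM groups were the highest. With Veh, IL-4 lowered *Il4ra* 1.81-fold (log2 fold change -0.85 ± 0.07, FDR 1.67e-08). In M[IL-4], RSM raised it 2.26-fold (log2 fold change 1.18 ± 0.07, FDR 1.35e-10) and HC3 1.52-fold (log2 fold change 0.60 ± 0.07, FDR 9.58e-07). In M[0], RSM also raised it, by less (log2 fold change 0.46 ± 0.07, FDR 1.56e-05), whereas HC3 had no detectable effect (log2 fold change 0.01 ± 0.07, 95% interval -0.13 to 0.15, FDR 0.885).

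The change of *Il4ra* with IL-4 was smaller after either inhibitor. It was -0.85 on the log2 scale with Veh, -0.27 with HC3 (FDR 0.0103) and -0.14 with RSM (FDR 0.192, 95% interval -0.28 to 0.00072). The difference itself passed for both inhibitors, with an HC3 by IL-4 interaction of 0.59 ± 0.09 (FDR 8.40e-04) and an RSM by IL-4 interaction of 0.72 ± 0.09 (FDR 6.20e-05). The HC3 interaction did not pass without the libraries numbered 3 (log2 0.55, FDR 0.126), and the change with IL-4 after HC3 did not pass without those numbered 2 (FDR 0.0505) or 3 (FDR 0.193). An antisense gene, *Gm44876*, shares 9.51% of the exon bases of *Il4ra*, and no strand setting is given for the counts, so that reads there cannot be assigned to either.

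*Il13ra1* (ENSMUSG00000017057, chrX:36112110-36171259, plus strand), the partner chain of the type II receptor, fell with IL-4 in all 3 treatments and rose with RSM in both polarizations. Levels were 11.1, 12.04 and 10.8 CPM in the 3 Veh libraries of M[0], 15.7, 15.7 and 12.8 in those given HC3 and 26.99, 27.2 and 25.2 in those given RSM. Among M[IL-4] libraries, Veh gave 5.81, 4.82 and 5.15 CPM, HC3 6.91, 8.96 and 7.12 and RSM 11.6, 11.1 and 11.7. The 3 RSM libraries of each polarization lay above all Veh and HC3 libraries of that polarization, and the RSM M[IL-4] range overlapped that of Veh M[0]. RSM raised *Il13ra1* 2.34-fold in M[0] (log2 fold change 1.23 ± 0.11, FDR 4.86e-08) and 2.18-fold in M[IL-4] (log2 fold change 1.12 ± 0.12, FDR 5.54e-07). HC3 raised it by less, at 0.39 ± 0.11 on the log2 scale without IL-4 (FDR 0.00977) and 0.54 ± 0.13 with it (FDR 0.00205). The HC3 effect in M[0] did not pass without the libraries numbered 1 (FDR 0.13) or 3 (FDR 0.0504), and that in M[IL-4] did not pass without those numbered 2 (FDR 0.087).

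The fall of *Il13ra1* with IL-4 was -1.10 ± 0.12 on the log2 scale with Veh (FDR 1.39e-06), -0.94 ± 0.12 with HC3 (FDR 1.13e-05) and -1.20 ± 0.11 with RSM (FDR 1.96e-07). Without the libraries numbered 2, the call of *Il13ra1* with Veh was lost (log2 -0.997) and a call with HC3 was gained (-1.01), both with FDR under 0.05. Neither interaction passed, and the intervals of the differences were -0.20 to 0.51 for HC3 and -0.46 to 0.24 for RSM on the log2 scale. Thus *Il13ra1* and *Il4ra* shared the directions with IL-4 and with RSM, and an interaction passed for *Il4ra* and not for *Il13ra1*. No test compared the interactions of these genes with each other.

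*Il2rg*, the common γ chain (ENSMUSG00000031304, chrX:101264378-101268255, minus strand), did not fall with IL-4. Its CPM ran from 24.95 to 67.3 over the 18 libraries, with group means from 33.7 ± 9.20 in Veh M[0] to 57.9 ± 8.26 in RSM M[IL-4], and each neighboring pair in the order of the 6 means overlapped. The library numbered 2 was the highest in 6 of 6 groups, which widened the spread within groups. IL-4 raised *Il2rg* with Veh (log2 fold change 0.54 ± 0.19, FDR 0.0365), but this did not pass without the libraries numbered 1 (FDR 0.0682) or 3 (log2 0.34, FDR 0.369), or with only the compared groups fitted (FDR 0.0654). The inhibitor comparisons did not pass, and RSM gave 0.36 on the log2 scale in naïve cells (95% interval -0.03 to 0.75) and 0.24 with IL-4 (95% interval -0.14 to 0.63). With the replicate number as a block within each polarization, both RSM effects passed, at FDR 9.91e-04 (M[0]) and 0.0166 (M[IL-4]). That in M[0] also passed without the libraries numbered 2 (log2 0.53, FDR 0.0049), as did the change with IL-4 after HC3 (log2 0.46, FDR 0.029, against 0.129 with all libraries). *Gm20489*, annotated on the same strand, shares 30.5% of the exon bases of *Il2rg*, so that its counts may miss reads of the shared exons.

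The balance of the receptor chains differed between groups. The ratio of *Il2rg* to *Il13ra1*, each per kb of exon, was 3.61 to 5.59 in the Veh M[0] libraries, 3.40 to 4.44 with HC3 and 2.50 to 2.59 with RSM. With IL-4 it was 10.02 to 19.04 with Veh, 9.75 to 10.5 with HC3 and 6.96 to 9.44 with RSM. All 9 libraries with IL-4 lay above all 9 without it, and within each polarization the RSM libraries lay below the Veh libraries. The ratio of *Il4ra* to *Il2rg* per kb was 1.15 to 1.91 in Veh M[0] and 0.429 to 0.728 in Veh M[IL-4], and 0.816 to 1.16 in RSM M[IL-4]. These ratios are of mRNA, are given as a description without a test, and move with the exon models chosen.

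**Figure D2:**
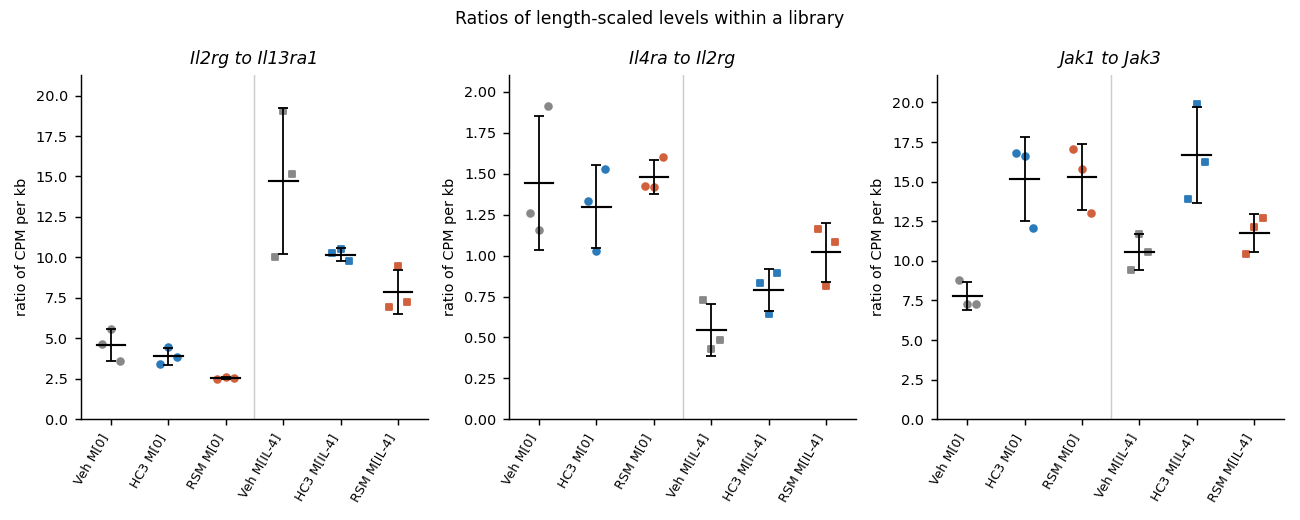
Ratios of length-scaled levels (CPM per kb of merged exon) of *Il2rg* to *Il13ra1*, *Il4ra* to *Il2rg* and *Jak1* to *Jak3*, a point per library with mean and SD (n = 3). The first ratio was 6.96 or more in every M[IL-4] library and 5.59 or less in every M[0] library, and the mean ratio of *Jak1* to *Jak3* was 15.2 in HC3 M[0] and 15.3 in RSM M[0] against 7.77 in Veh M[0], and 16.7 in HC3 M[IL-4] and 11.8 in RSM M[IL-4] against 10.6 in Veh M[IL-4].

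*Jak1*, the kinase of IL-4Rα (ENSMUSG00000028530, chr4:101152367-101265282, minus strand), had the smallest spread of group means of the 10. It ran from 330.4 to 399 CPM over 18 libraries, and its highest and lowest group means differed 1.09-fold. It passed in 0 of 11 comparisons by edgeR, at unadjusted p under 0.05 in 0 of 11 and by DESeq2 in 0 of 11. Its 95% intervals over the 9 pairwise comparisons of groups reached from -0.23 to 0.25 on the log2 scale. With library size alone as the scaling, RSM in M[0] passed (log2 fold change 0.16, FDR 0.0418).

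*Jak3*, the kinase of the γ chain (ENSMUSG00000031805, chr8:71676296-71690575, plus strand), was lower with each inhibitor in M[0], and with HC3 but not detectably with RSM in M[IL-4]. The naïve Veh libraries held 31.2, 33.95 and 34.1 CPM, the HC3 libraries 16.1, 15.8 and 20.3 and the RSM libraries 16.4, 17.3 and 20.996. With IL-4, CPM were 26.7, 25.3 and 24.4 for Veh, 18.3, 14.5 and 16.9 for HC3 and 25.6, 23.2 and 22.6 for RSM. Veh M[0] was the highest group and overlapped no other, both inhibitor groups of M[0] overlapped each other, and RSM M[IL-4] overlapped Veh M[IL-4]. In M[0], *Jak3* fell 1.90-fold with HC3 (log2 fold change -0.93 ± 0.11, FDR 1.92e-06) and 1.81-fold with RSM (log2 fold change -0.86 ± 0.11, FDR 4.96e-06). In M[IL-4] it fell with HC3 (log2 fold change -0.62 ± 0.11, FDR 2.44e-04), and RSM gave -0.10 on the log2 scale (95% interval -0.33 to 0.14, FDR 0.531). The RSM by IL-4 interaction passed (0.76 ± 0.16 on the log2 scale, FDR 0.00405), and the HC3 by IL-4 interaction did not (0.31 ± 0.16, FDR 0.305).

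IL-4 thus moved *Jak3* down with Veh (log2 fold change -0.38 ± 0.11, FDR 0.0135) and up with RSM (0.38 ± 0.11, FDR 0.0254). The fall with Veh did not pass without the libraries numbered 2 (FDR 0.0575) or 3 (FDR 0.109). The rise with RSM did not pass without those numbered 1 (FDR 0.276) or 2 (FDR 0.12), or with library size as the scaling (FDR 0.0785). The ratio of *Jak1* to *Jak3* per kb was 7.25 to 8.78 in the Veh M[0] libraries and 12.1 to 16.8 in HC3 M[0]. *Insl3*, on the same strand, shares 7.55% of the exon bases of *Jak3*.

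*Tyk2*, the kinase of IL-13Rα1 (ENSMUSG00000032175, chr9:21104068-21131243, minus strand), ran from 59.0 to 98.9 CPM. It averaged 90.6 ± 11.7, 65.04 ± 5.25 and 69.997 ± 6.95 CPM in naïve cells with Veh, HC3 and RSM, and 92.9 ± 2.48, 75.3 ± 5.61 and 82.7 ± 4.41 CPM in the M[IL-4] groups in the same order. It was lower with both inhibitors in M[0], at -0.48 ± 0.09 with HC3 (FDR 3.54e-04) and -0.37 ± 0.09 with RSM (FDR 0.00323) on the log2 scale. In M[IL-4] it fell with HC3 (log2 fold change -0.30 ± 0.09, FDR 0.0137), which did not pass without the libraries numbered 2 (FDR 0.0919) or 3 (FDR 0.096). RSM gave -0.17 there (95% interval -0.36 to 0.03, FDR 0.163), which passed with the replicate block within polarization (FDR 0.00672). The change of *Tyk2* with IL-4 and Veh had a 95% interval of -0.16 to 0.23 on the log2 scale, and the change with RSM (0.24, FDR 0.0932) did not pass either. The antisense gene *1700084C06Rik* shares 8.07% of its exon bases.

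*Stat6* (ENSMUSG00000002147, chr10:127642986-127660957, plus strand), the transcription factor of the pathway, ran from 258 to 339 CPM and moved by small amounts with tight replicates. Its group means were 335 ± 4.97, 264 ± 3.93 and 312 ± 12.3 CPM in naïve cells with Veh, HC3 and RSM, and 289 ± 9.60, 262 ± 4.69 and 309 ± 8.72 CPM with IL-4. Both HC3 groups were the lowest and overlapped each other, and both RSM groups overlapped each other between Veh M[0] and Veh M[IL-4]. HC3 lowered *Stat6* 1.27-fold in M[0] (log2 fold change -0.34 ± 0.05, FDR 1.30e-05), and IL-4 lowered it 1.16-fold with Veh (log2 fold change -0.21 ± 0.05, FDR 0.00273). The fall with HC3 in M[IL-4] was -0.14 on the log2 scale (FDR 0.0276), and it did not pass without the libraries numbered 1, 2 or 3 (FDR 0.0851 to 0.18), with only the compared groups fitted (FDR 0.159), without the count filter (FDR 0.226), or with library size as the scaling (FDR 0.139).

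RSM differed from Veh by -0.10 in M[0] (95% interval -0.20 to -3.1e-05, FDR 0.103, and 0.0494 with the replicate block within polarization) and by 0.09 in M[IL-4] (95% interval -0.01 to 0.20, FDR 0.138, and 0.0223 with library size as the scaling). The HC3 by IL-4 interaction was 0.20 ± 0.07 (FDR 0.093, and 0.0304 by DESeq2). The fall of *Stat6* with IL-4 in Veh did not pass without the libraries numbered 3 (FDR 0.152) or without the count filter (FDR 0.0646). Across the 9 pairwise comparisons, the point estimates for *Stat6* ran from -0.34 to 0.09 on the log2 scale.

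**Figure D3:**
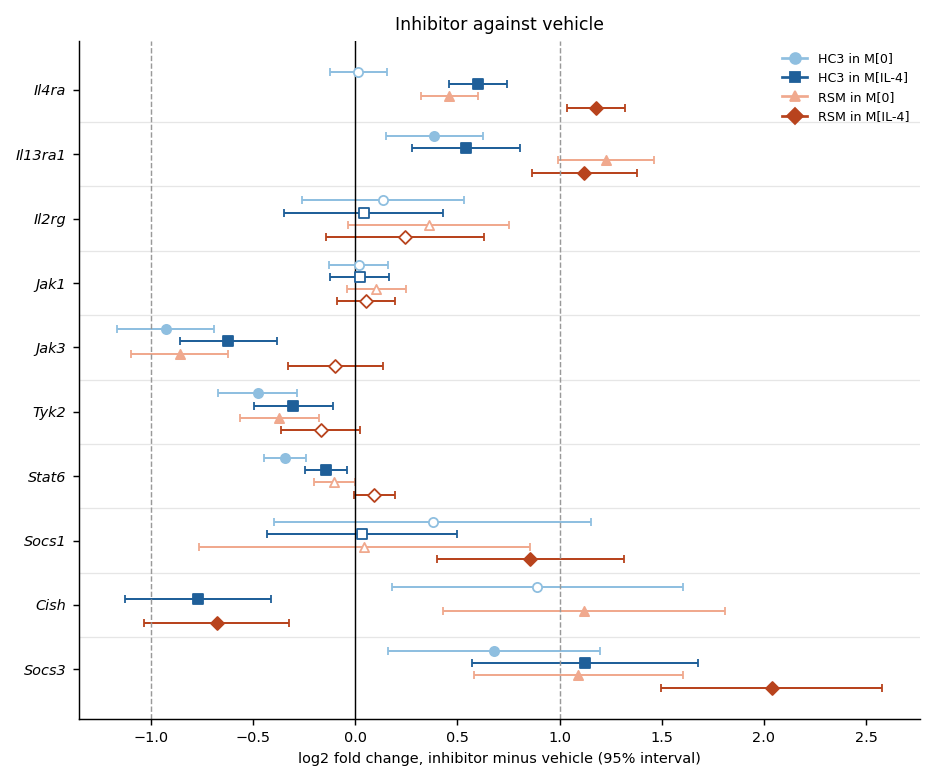
log2 fold change of each of the 10 genes with HC3 or RSM against vehicle (horizontal axis), in M[0] and in M[IL-4], with 95% intervals; filled symbols passed at FDR under 0.05 and dashed lines mark the fold change required for a call. The widest shift to the right was *Socs3* with RSM in M[IL-4] (2.04), *Cish* lay right of 0 in M[0] and left of 0 in M[IL-4], and *Jak3* and *Tyk2* lay left of 0. Within a polarization, both inhibitors were compared with the same 3 vehicle libraries.

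Of the 10 genes, *Socs1* and *Cish* had the largest responses to IL-4. *Socs1* (ENSMUSG00000038037, chr16:10782240-10785536, minus strand), an inhibitor of JAK1 and JAK2, had low counts in M[0] and rose with IL-4 in all 3 treatments. Its CPM in M[0] were 1.88, 0.881 and 1.72 for Veh, 2.41, 1.95 and 1.53 for HC3 and 1.81, 1.05 and 1.80 for RSM. IL-4 libraries held 20.03, 23.1 and 26.3 CPM after Veh, 27.96, 17.7 and 25.4 after HC3 and 57.8, 30.4 and 37.4 after RSM. In counts, the M[0] libraries held 15 to 45 reads and the M[IL-4] libraries 319 to 1135. IL-4 raised *Socs1* 15.3-fold with Veh (log2 fold change 3.94 ± 0.29, FDR 7.28e-09), 12.1-fold with HC3 (log2 fold change 3.59 ± 0.28, FDR 3.24e-08) and 26.9-fold with RSM (log2 fold change 4.75 ± 0.29, FDR 5.59e-10). The interactions did not pass, with -0.35 ± 0.43 for HC3 (95% interval -1.25 to 0.56) and 0.81 ± 0.44 for RSM (95% interval -0.12 to 1.74, FDR 0.318), though the latter reached FDR 0.0481 without the count filter.

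Within M[IL-4], the RSM libraries were above all Veh libraries of *Socs1* (log2 fold change 0.86 ± 0.22, FDR 0.00402), while HC3 overlapped Veh (log2 fold change 0.03, 95% interval -0.43 to 0.50). The RSM effect rests in part on the library numbered 1, at 57.8 CPM. Without the libraries of that number it was 0.46 on the log2 scale (FDR 0.141), and it reached the fold required for a call without those numbered 2 (1.03, FDR 2.78e-04) or 3 (1.03, FDR 0.035). In M[0], the levels were too low to bound a change tightly, with 95% intervals of -0.40 to 1.16 for HC3 and -0.76 to 0.85 for RSM.

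*Cish* (ENSMUSG00000032578, chr9:107296026-107302784, plus strand) had the largest response to IL-4 of the 10 genes with vehicle, and both inhibitors held it below vehicle in M[IL-4]. In naïve cells the Veh libraries held 0.276, 0.470 and 0.215 CPM, while HC3 gave 0.589, 0.563 and 0.631 and RSM 0.427, 0.732 and 0.924. The M[IL-4] libraries held 9.53, 10.3 and 10.5 CPM with Veh, 6.0001, 5.42 and 6.41 after HC3 and 6.52, 5.71 and 6.76 after RSM. All 6 inhibitor libraries of M[IL-4] lay below all 3 vehicle libraries, and the 2 inhibitor groups overlapped each other. IL-4 raised *Cish* 31.3-fold with Veh (log2 fold change 4.97 ± 0.25, FDR 3.37e-11), 9.90-fold with HC3 (log2 fold change 3.31 ± 0.23, FDR 5.08e-09) and 9.01-fold with RSM (log2 fold change 3.17 ± 0.22, FDR 3.93e-09). In M[IL-4], HC3 lowered it 1.70-fold (log2 fold change -0.77 ± 0.17, FDR 0.00139) and RSM 1.60-fold (log2 fold change -0.68 ± 0.17, FDR 0.00357), and the latter reached FDR 0.0517 without the libraries numbered 3.

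The induction of *Cish* differed between vehicle and each inhibitor, as the HC3 by IL-4 interaction was -1.66 ± 0.38 (FDR 0.0119) and that of RSM -1.80 ± 0.37 (FDR 0.00386). The M[0] libraries held 5, 8 and 4 reads with Veh, 11, 11 and 12 with HC3 and 8, 14 and 18 with RSM, close to the limit of 3 counts. RSM raised *Cish* in M[0] (log2 fold change 1.12 ± 0.33, FDR 0.0139) although 1 RSM library lay within the range of Veh, and this did not pass without the libraries numbered 3 (log2 0.63, FDR 0.349) or with only the compared groups fitted (FDR 0.0903). HC3 gave 0.89 there (95% interval 0.18 to 1.60, FDR 0.0634). Without the libraries numbered 3, the HC3 interaction was -1.42 (FDR 0.259) and that of RSM -1.33 (FDR 0.23), and without those numbered 1 that of HC3 was -1.61 (FDR 0.0917). *Gm17040* and *Gm17041*, antisense genes, share 11.5% of the exon bases of *Cish*.

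*Socs3* (ENSMUSG00000053113, chr11:117966079-117970047, minus strand) is an inhibitor best known from IL-6 family signaling. It differed from the other feedback inhibitors, as it did not rise with IL-4 and rose with each inhibitor in both polarizations. CPM of the naïve libraries were 6.58, 7.69 and 9.73 with Veh, 13.001, 11.5 and 13.99 after HC3 and 20.6, 12.4 and 18.2 after RSM. Those of the IL-4 libraries were 4.36, 3.72 and 6.05 with Veh, 10.4, 7.53 and 12.9 after HC3 and 24.04, 12.9 and 21.1 after RSM. In M[IL-4] all HC3 and RSM libraries lay above all Veh libraries, as they did in M[0], and RSM M[IL-4] overlapped RSM M[0]. RSM raised *Socs3* 4.11-fold in M[IL-4] (log2 fold change 2.04 ± 0.26, FDR 3.48e-06) and 2.13-fold in M[0] (log2 fold change 1.09 ± 0.24, FDR 0.00138). HC3 raised it 2.18-fold in M[IL-4] (log2 fold change 1.12 ± 0.26, FDR 0.00217) and 1.60-fold in M[0] (log2 fold change 0.68 ± 0.25, FDR 0.0324). Stromal marker sums, given above, were also higher in the inhibitor groups of M[0] without overlap with vehicle. In M[IL-4] the ranges of both inhibitor groups overlapped that of vehicle. The part of stromal markers in the rise of *Socs3* was not tested.

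Without the libraries numbered 1, the M[0] effects on *Socs3* did not pass, with FDR 0.228 for HC3 and a log2 fold change of 0.80 for RSM (FDR 0.075). HC3 also did not pass without those numbered 3 (FDR 0.0835). With the replicate block within polarization, both M[0] effects passed, at FDR 3.46e-04 (HC3) and 6.18e-07 (RSM). With IL-4, *Socs3* fell in Veh (log2 fold change -0.76 ± 0.27, FDR 0.0367), which did not pass without the libraries numbered 1 (FDR 0.0982) or 3 (FDR 0.127), while it gave -0.32 with HC3 (95% interval -0.83 to 0.19) and 0.18 with RSM (95% interval -0.30 to 0.67). The HC3 by IL-4 interaction was 0.44 ± 0.36 (FDR 0.577) and that of RSM 0.95 ± 0.35 (FDR 0.112, and 7.27e-04 without the count filter).

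STAT proteins bind palindromes of the form TTCNNNGAA, and STAT6 also the form in which 4 bases separate TTC from GAA, and both forms match on either strand alike. In the 250 bases before the RefSeq start (GRCm38.p6), 1 of the 10 members held TTCNNNGAA, *Socs3*, and 0 of 10 held the form with 4 bases between, against 7.02% and 5.85% of 32851 windows of the same length of all genes. *Cish* holds TTCNNNGAA at bases 1 and 12 after its RefSeq start, outside that window, and with 50 bases after the start included, 8.30% of all windows hold this motif. Both sites are shown here, 5′ to 3′ on the strand of the gene, with the motif in capitals. The *Socs3* stretch is at chr11:117969501-117969530 on the minus strand and lies in an intron of 1 of 3 GENCODE transcripts and outside the other 2. The *Cish* stretch is at chr9:107296654-107296683 on the plus strand and lies in an exon of 1 of 5 transcripts and outside the other 4. It was chosen after its sequence was seen, since it lies outside the window searched first.
Socs3: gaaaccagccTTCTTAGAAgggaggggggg
Cish: cagttTTCCTGGAAagTTCTTGGAAatctg
A match to these letters is a description of the sequence and not a measured binding site.

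**Figure D4:**
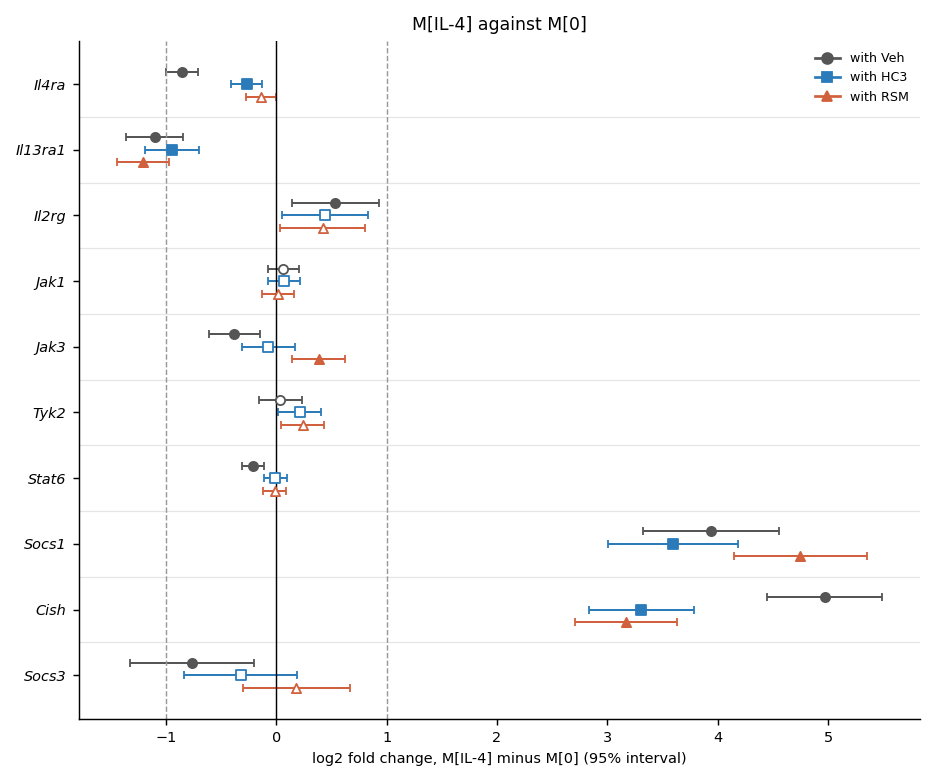
log2 fold change of each of the 10 genes in M[IL-4] against M[0] (horizontal axis) with Veh, HC3 or RSM, with 95% intervals; filled symbols passed at FDR under 0.05 and dashed lines mark the fold change required for a call. *Socs1* and *Cish* stood between 3.17 and 4.97, *Il13ra1* between -1.20 and -0.94, and *Il4ra* at -0.85 with Veh and nearer 0 with either inhibitor.

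Counted over the 10 genes, IL-4 with vehicle moved 8 at FDR under 0.05, against 31.0% of all 14979 genes, and 3 were called (*Socs1* and *Cish* up, *Il13ra1* down), against 6.66% of all genes. With HC3, 4 of 10 passed (all genes, 14.7%) and 2 were called (3.97%). With RSM, 4 passed (15.5%) and 3 were called (4.26%). HC3 in M[0] moved 5 of the 10 (all genes, 44.1%), with 0 called (12.0%) by edgeR, and RSM in M[0] moved 6 (41.1%), with 3 called (11.6%), *Il13ra1*, *Cish* and *Socs3*. In M[IL-4], HC3 moved 7 (38.8%) with 1 called (10.3%), *Socs3*, and RSM moved 5 (38.6%) with 3 called (11%), *Il4ra*, *Il13ra1* and *Socs3*. The inhibitor and IL-4 comparisons with vehicle share the vehicle libraries, so their values are not independent of each other. The HC3 by IL-4 interaction passed for 2 (*Il4ra* and *Cish*, all genes 6.48%) and called 1 (1.24%), and the RSM by IL-4 interaction passed for 3 (*Il4ra*, *Jak3* and *Cish*, all genes 9.19%) and called 1 (2.14%). Some of these counts changed when a replicate number was left out, which also leaves fewer libraries per group. Counts over all genes tested are given beside them. With IL-4 and vehicle, 4 passed without the libraries numbered 3 (all genes, 2319 of 14686). Without those numbered 1, 6 passed (3756 of 14647), and without those numbered 2, 7 passed (4145 of 14690). With all libraries it was 4649 of 14979 genes. For HC3 in M[0], 3 passed without number 1 (all genes, 5385 of 14647) and 3 without number 3 (4264 of 14686), against 6608 genes with all libraries. For HC3 in M[IL-4], 4 passed without number 2 (5088 of 14690 genes, against 5810 with all libraries). For HC3 against RSM in M[IL-4], where 6 passed with all libraries (all genes, 1947), 3 passed without number 1 (1319) and 2 without number 3 (564). The HC3 by IL-4 interaction passed for 1 without number 1 (all genes, 535) and for 0 without number 3 (73), against 970 genes with all libraries. Neither exclusion left a called gene among the 10 (all genes, 116 and 41 called). The RSM by IL-4 interaction passed for 2 without number 3 (all genes, 268, against 1377 with all libraries), with 0 of the 10 called (all genes, 131). RSM in M[0] called 2 without number 1 (all genes, 1482) or without number 3 (1418), against 1732 genes with all libraries. RSM in M[IL-4] called 4 without number 2 (1559) or without number 3 (1341), against 1655 genes with all libraries. Without the libraries numbered 3, HC3 in M[0] called 1 of the 10, *Jak3* (log2 -1.03, FDR 1.26e-04), and 1476 of all genes. For HC3 in M[0], DESeq2 called 0 of the 10 as well, and 6 had an unadjusted p under 0.05.

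The 2 inhibitors were also compared directly, at their own doses, which differ. In M[0], 3 of 10 genes passed (all genes, 13.6%) and 0 were called (3.04%), and in M[IL-4] 6 passed (13.0%) and 0 were called (2.8%), by edgeR. *Il4ra* was lower with HC3 than with RSM in M[0] (-0.45 ± 0.07 on the log2 scale, FDR 1.11e-04) and in M[IL-4] (-0.58 ± 0.07, FDR 6.99e-06). *Il13ra1* was lower with HC3 in M[0] (-0.84 ± 0.11, FDR 2.73e-05) and in M[IL-4] (-0.58 ± 0.12, FDR 0.00225), the latter without passing when the libraries numbered 1 (FDR 0.0686) or 3 (FDR 0.114) were left out. *Stat6* was lower with HC3, with log2 differences of -0.24 without IL-4 and -0.24 with it (FDR 0.00213 and 0.00261), and neither passed without the libraries numbered 3 (FDR 0.137 and 0.142). In M[IL-4] *Jak3* (-0.52, FDR 0.004), *Socs1* (-0.82, FDR 0.0155) and *Socs3* (-0.92, FDR 0.0144) were lower with HC3 as well, but *Jak3* did not pass without the libraries numbered 2 (FDR 0.0583), and neither SOCS gene passed without those numbered 1 (FDR 0.101 and 0.195) or 3 (FDR 0.152 and 0.0918). For *Cish* the inhibitors were not distinguished, with 95% intervals of -0.83 to 0.38 without IL-4 and -0.45 to 0.27 with it. The difference of *Socs3* in M[0] passed with the replicate block within polarization (-0.41 with FDR 0.289, and 0.0273 with the block) or without the count filter (FDR 0.0399), and *Il2rg* in M[0] reached FDR 0.0496 with the block.

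A list of 37 other genes of the pathway was described in the same fits, comprising ligands, a decoy receptor, JAK2, adaptors, other STATs, other SOCS and PIAS inhibitors, phosphatases, coactivators and a ubiquitin ligase, of which 36 were tested and *Il13* was not. IL-4 with vehicle raised 8 (all genes, 16.1%) and lowered 9 (14.9%), with a median log2 fold change of -0.02 against -0.01 over all genes. HC3 raised 8 and lowered 16 in M[0] (all genes, 22.6% and 21.5%, median -0.08 against 0.02). RSM in M[0] raised 5 and lowered 13 (all genes, 20.5% and 20.7%, median -0.07 against 0.01). In M[IL-4], HC3 raised 5 and lowered 15 (all genes, 18.9% and 19.9%, median -0.12 against 0.01), and RSM raised 9 and lowered 10 (all genes, 20.1% and 18.5%, median 0.07 against 0.02).

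**Figure D5:**
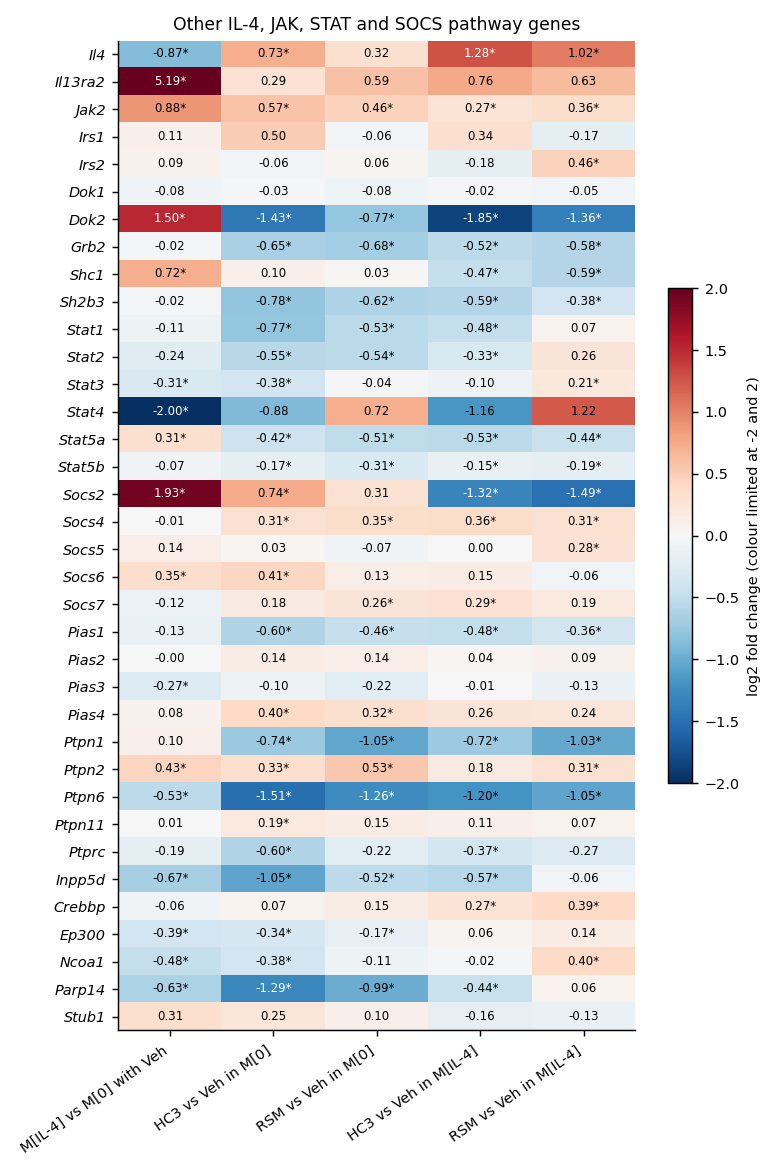
log2 fold change of the 36 other pathway genes tested (rows) in 5 comparisons (columns), printed in each cell with an asterisk where FDR was under 0.05; colour is limited at -2 and 2. *Dok2*, *Ptpn6* and *Ptpn1* were lower with each inhibitor in both polarizations, and *Socs2* was lower with each inhibitor in M[IL-4], against log2 values of 0.74 and 0.31 in M[0].

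Among these, *Socs2*, another STAT5-responsive SOCS gene, also rose with IL-4 and fell with each inhibitor in M[IL-4]. It had 4.15, 2.94 and 5.16 CPM in Veh M[0] and 13.6, 19.6 and 13.6 in Veh M[IL-4], and 6.06, 6.86 and 5.80 with HC3 and 4.89, 4.95 and 6.81 with RSM in M[IL-4]. No inhibitor library of M[IL-4] reached the vehicle range. IL-4 raised it with Veh (log2 fold change 1.93 ± 0.21, FDR 7.65e-07), and in M[IL-4] it fell with HC3 (log2 fold change -1.32 ± 0.20, FDR 2.83e-05) and RSM (log2 fold change -1.49 ± 0.20, FDR 6.97e-06), while in M[0] HC3 raised it (log2 fold change 0.74 ± 0.21, FDR 0.00783). Another annotated gene, *Gm9847*, shares a stretch of 599 bp with *Socs2*, so that reads there may be split. *Il13ra2*, the decoy receptor of IL-13, held 3, 0 and 0 counts in the Veh M[0] libraries and 49, 24 and 50 in Veh M[IL-4]. The ratio was 41.04, with a 95% counting interval of 13.7 to 202. That interval is of reads pooled over the libraries and leaves out the spread between libraries. The inhibitor comparisons of *Il13ra2* in M[IL-4] did not pass (log2 0.76 and 0.63, FDR 0.167 and 0.257).

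*Jak2*, which many cytokine receptors use and which was named after its values were seen, rose with IL-4 (log2 fold change 0.88 ± 0.10, FDR 1.23e-06) and with each inhibitor, by 0.57 (HC3) and 0.46 (RSM) without IL-4 and 0.27 (HC3) and 0.36 (RSM) with it, on the log2 scale (FDR 9.91e-05, 8.73e-04, 0.0315 and 0.00565). Of the phosphatases listed, 3 are described. *Ptpn6*, which encodes SHP-1, had 326, 332 and 326 CPM in Veh M[0], 118, 114 and 112 with HC3 and 136, 131 and 143 with RSM. It fell 2.85-fold with HC3 and 2.40-fold with RSM in M[0] (FDR 4.09e-13 and 6.30e-12), and 2.30-fold and 2.08-fold in M[IL-4] (FDR 1.56e-11 and 8.91e-11). *Ptpn1*, which encodes PTP1B, fell in the same 4 comparisons, with log2 fold changes of -0.74, -1.05, -0.72 and -1.03. *Inpp5d*, which encodes the lipid phosphatase SHIP1, fell with HC3 in M[0] (log2 fold change -1.05 ± 0.06, FDR 1.73e-10) and in M[IL-4] (log2 fold change -0.57 ± 0.06, FDR 8.33e-07), and with RSM in M[0] (log2 fold change -0.52 ± 0.06, FDR 2.09e-06). RSM in M[IL-4] gave -0.06 (95% interval -0.19 to 0.08). In *Ptpn6*, 6.96% of exon bases are shared with an antisense gene.

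The adaptor *Dok2*, which is recruited to phosphorylated receptors, rose with IL-4 (log2 fold change 1.50 ± 0.11, FDR 9.08e-09) and fell with each inhibitor. It had 171, 178 and 199 CPM in Veh M[IL-4], 54.9, 43.9 and 53.7 with HC3 and 78.9, 62.8 and 71.6 with RSM, and the inhibitor libraries all lay below those of vehicle (log2 fold change -1.85 ± 0.12, FDR 4.56e-10 with HC3, -1.36 ± 0.11 and 1.63e-08 with RSM). *Parp14*, a STAT6 coactivator, fell in M[0] with HC3 (log2 fold change -1.29 ± 0.15, FDR 1.08e-06) and RSM (log2 fold change -0.99 ± 0.15, FDR 2.37e-05) and with IL-4 in Veh (log2 fold change -0.63 ± 0.15, FDR 0.00277). In M[IL-4], HC3 lowered *Parp14* (log2 fold change -0.44 ± 0.15, FDR 0.0236), and RSM gave 0.06 (95% interval -0.24 to 0.37, FDR 0.768), and the RSM by IL-4 interaction passed (FDR 0.00276). The annotated gene *Il4* itself was counted at low levels, 2.48, 3.14 and 3.36 CPM in Veh M[IL-4], 6.11, 7.80 and 7.83 with HC3 and 6.32, 5.60 and 6.28 with RSM (log2 fold change 1.28 ± 0.19, FDR 3.17e-05 with HC3, 1.02 ± 0.19 and 3.35e-04 with RSM). These counts do not tell whether the reads come from the spliced mRNA. *Stat4*, at 2.49, 2.17 and 0.968 CPM in Veh M[0], fell with IL-4 (log2 fold change -1.997 ± 0.53, FDR 0.00732), and 26.7% of its exon bases belong also to another annotated gene on its strand.

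Other receptor chains that signal through these kinases were described from a list of 18 genes, of which 14 were tested. HC3 in M[0] raised 2 and lowered 8 (all genes, 22.6% and 21.5%, median -0.40 against 0.02), and RSM in M[0] did so for 2 and 8 (all genes, 20.5% and 20.7%, median -0.37 against 0.01). In M[IL-4] the numbers were 3 and 5 with HC3 (all genes, 18.9% and 19.9%, median -0.23 against 0.01) and 6 and 4 with RSM (all genes, 20.1% and 18.5%, median 0.00 against 0.02). The chains with the lowest FDR were *Il10ra*, which fell with HC3 in M[0] (log2 fold change -1.79 ± 0.09, FDR 1.33e-11), *Il6ra* (log2 fold change -1.47 ± 0.09, FDR 2.87e-10), *Ifngr1* (log2 fold change -1.15 ± 0.07, FDR 3.83e-10) and *Ifnar1* (log2 fold change -0.87 ± 0.06, FDR 1.60e-09). *Il21r*, which pairs with the γ chain and was named after its values were seen, rose with RSM in M[0] (log2 fold change 1.86 ± 0.16, FDR 1.99e-08), from 13.5, 20.2 and 18.9 to 59.2, 74.1 and 58.3 CPM. With IL-4 and vehicle, 4 chains rose and 5 fell (all genes, 16.1% and 14.9%).

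A list of 19 known STAT6 targets or markers of alternative activation, 18 of them tested and *Alox15* not, gives the downstream side of the pathway. It holds genes that IL-4 is known to induce, so its direction with IL-4 is no independent result. IL-4 with vehicle raised 16 and lowered 1 (*Il1rn*, named after its value was seen), against 16.1% and 14.9% of all genes, with a median log2 fold change of 3.96 against -0.01. In M[IL-4], HC3 lowered 10 and raised 2 (all genes, 19.9% and 18.9%, median -0.67 against 0.01), and RSM lowered 9 and raised 8 (all genes, 18.5% and 20.1%, median -0.49 against 0.02). The targets did not move together. *Retnla*, which was named after its values were seen, had 1273 ± 413 CPM in Veh M[IL-4]. It had 36.0 ± 5.46 CPM with HC3 and 26.1 ± 6.14 with RSM in M[IL-4]. Its log2 fold changes there were -5.15 ± 0.26 with HC3 (FDR 6.13e-09) and -5.61 ± 0.27 with RSM (FDR 3.22e-09). *Egr2*, a transcription factor, had 213, 262 and 225 CPM with Veh, 89.6, 99.2 and 86.2 with HC3 and 71.8, 76.3 and 66.04 with RSM in M[IL-4], and fell with both (log2 fold change -1.35 ± 0.09, FDR 8.47e-10 for HC3, -1.71 ± 0.09 and 3.54e-11 for RSM). *Arg1*, which encodes arginase-1, had 193, 150.3 and 201 CPM with Veh, 39.9, 51.8 and 59.1 with HC3 and 380.2, 456 and 557 with RSM, so that it fell with HC3 (log2 fold change -1.85 ± 0.15, FDR 1.69e-08) and rose with RSM (log2 fold change 1.36 ± 0.15, FDR 4.88e-07). The lectin gene *Mgl2* also fell with HC3 (log2 fold change -0.64 ± 0.17, FDR 0.00644) and rose with RSM (log2 fold change 1.17 ± 0.17, FDR 2.45e-05), and *Klf4* rose with both (log2 fold change 1.07 ± 0.08, FDR 5.33e-09 and log2 fold change 1.25 ± 0.08, FDR 6.09e-10).

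For *Il4ra*, *Il13ra1*, *Socs1* and *Socs3*, each called in at least 1 comparison, the genes with the most similar pattern over the 18 libraries were found among the 10974 genes averaging 50 counts or more, by Pearson correlation of log2 CPM. For *Il4ra* they were *Sik3* (r = 0.971) and *Ece1* (r = 0.969), and for *Il13ra1* they were *Clec4n* (r = 0.972) and *Rnf19a* (r = 0.964). *Socs1* was closest to *Mgl2* (r = 0.982) and *Kcnd3* (r = 0.979), of which *Mgl2* is in the STAT6 target list. *Socs3* was closest to *Vldlr* (r = 0.928) and *Impdh1* (r = 0.922). The 18 libraries of these correlations fall into 6 groups and share their treatments, so the values describe a common pattern across groups and carry no p-value. *Il2rg*, *Jak1*, *Jak3*, *Tyk2* and *Stat6* were called in 0 of 11 comparisons by edgeR.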

How the data were processed

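Poly-T-selected RNA of 18 BMDM libraries was sequenced. Per the labels, the authors used fastp, STAR, Picard and featureCounts of Subread with GRCm38, and deposited 1 table of raw counts per gene. Versions, the annotation release and the strand setting are not given in the sources used here. Gene symbols were matched from GENCODE M21 for 55144 of 55385 identifiers.

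A gene was tested when 2 or more libraries held 10 or more counts, with edgeR 4.0.16 (R 4.3.3), by quasi-likelihood tests on 1 fit of all 6 groups with TMM scaling and Benjamini-Hochberg adjustment over all genes tested. The tests were checked on simulated counts. DESeq2 1.42.0, other filters, scalings and sample choices were run as alternatives. Shared stretches were sought with blastn 2.17.0. The members, gene lists and tests were chosen with earlier results of these data known. Beyond the 10 members, the rule named pathway genes called against vehicle or with IL-4, and up to 4 genes of the other lists by lowest FDR. Genes marked above as named after their values were seen fall outside this rule.

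The labels state that 3 mice were used but not that a replicate number is a mouse, so p-values measure the spread between these libraries. Deviations from group means correlated above 0.1 in 18 of 18 pairs of the same number and polarization (r from 0.110 to 0.372). Across polarizations they did so in 12 of 27 pairs of the same number and in 10 of 54 pairs of different numbers. Across polarizations, r was 0.239 to 0.3005 for pairs numbered 2, -0.0311 to 0.104 for those numbered 1 and -0.00613 to 0.115 for those numbered 3. It was 0.0861 to 0.198 between M[0] libraries numbered 3 and M[IL-4] libraries numbered 1. For numbers 1 and 3 in particular, a match across polarizations is thus unclear, which bears on IL-4 and interaction results with a number left out. The numbers were thus taken to pair libraries within a polarization, and the blocked value is given where it changed a call. Protein sequences were not used here, and the genes most similar to *Cish* are not reported here.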

Additional observations from a re-analysis of the deposited data

Results flagged for a closer look

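Of the 10 genes, 3 had a response to IL-4 that differed between an inhibitor and vehicle by the test of the difference itself. For *Il4ra* the difference on the log2 scale was 0.59 with HC3 and 0.72 with RSM (edgeR FDR 8.40e-04 and 6.20e-05). For *Jak3* the difference with RSM was 0.76 (FDR 0.00405). For *Cish* it was -1.66 with HC3 and -1.80 with RSM (FDR 0.0119 and 0.00386). The *Cish* values rest on 4 to 18 counts per M[0] library, and without the libraries numbered 3 neither passed (FDR 0.259 and 0.23), nor did that of *Il4ra* with HC3 (FDR 0.126). All these differences share the vehicle libraries.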

How the results depend on the processing

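Of 1160 values of the 10 genes under alternatives, 1064 kept their direction and side of the threshold, 47 no longer passed, 23 newly passed and 26 turned direction. With each replicate number left out in turn, the number of genes called ran from 344 to 552 for IL-4 with HC3 (all libraries, 594), from 419 to 550 for IL-4 with RSM (all libraries, 638), from 41 to 145 for HC3 by IL-4 interaction (all libraries, 186), from 131 to 279 for RSM by IL-4 interaction (all libraries, 321), from 257 to 408 for HC3 vs RSM in M[0] (all libraries, 456), from 218 to 377 for HC3 vs RSM in M[IL-4] (all libraries, 419). The number of the 10 called ran from 0 to 1 for HC3 vs Veh in M[0] (all libraries, 0), from 0 to 1 for HC3 by IL-4 interaction (all libraries, 1), from 0 to 1 for RSM by IL-4 interaction (all libraries, 1). The 26 reversals concern log2 values that passed neither with all libraries nor under the alternative. Leaving out a number, they ran for *Il4ra* from -0.0607 to 0.0645 (HC3 vs Veh in M[0]), for *Il13ra1* from -0.0159 to 0.383 (HC3 interaction), from -0.172 to 0.0032 (RSM interaction), for *Il2rg* from -0.0502 to 0.14 (HC3 vs Veh in M[IL-4]), from -0.203 to 0.0858 (HC3 interaction), from -0.268 to 0.0923 (RSM interaction), for *Jak1* from -0.0373 to 0.0338 (HC3 vs Veh in M[0]), from -0.0129 to 0.0549 (HC3 vs Veh in M[IL-4]), from -0.0436 to 0.142 (IL-4 with Veh), from -0.0107 to 0.0519 (IL-4 with RSM), from -0.0466 to 0.0922 (HC3 interaction), from -0.0902 to 0.0357 (RSM interaction), for *Jak3* from -0.196 to 0.0376 (IL-4 with HC3), for *Tyk2* from -0.106 to 0.11 (IL-4 with Veh), for *Stat6* from -0.0179 to 0.019 (IL-4 with HC3), for *Socs1* from -0.0064 to 0.107 (RSM vs Veh in M[0]), from -0.195 to 0.204 (HC3 vs Veh in M[IL-4]), from -0.577 to 0.0952 (HC3 interaction). With mitochondrial genes left out, values were -0.00468 for *Il4ra* (HC3 vs Veh in M[0]), -0.00176 for *Jak1* (HC3 vs Veh in M[0]), 0.00785 for *Stat6* (IL-4 with HC3). With library size as the scaling, values were -0.0452 for *Jak1* (IL-4 with RSM), -0.0159 for *Tyk2* (IL-4 with Veh). Without the count filter, values were 0.0166 for *Stat6* (IL-4 with HC3). With the replicate block over all libraries, values were -0.00117 for *Socs1* (HC3 vs Veh in M[IL-4]). The replicate block over all libraries also brought under 0.05 the change of *Il2rg* with IL-4 after HC3 (FDR 0.00432) and RSM (0.00655), that of *Tyk2* after RSM (0.0492) and the RSM by IL-4 interaction of *Socs3* (0.00736), and the block within polarization changed no call of the 10 other than those given above. The cause of these changes was not tested. Depth limits *Cish* and *Socs1* in M[0], where a library held as few as 4 and 15 counts, and 3 libraries a group limit small changes of the other genes.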
